A study of Mus musculus with 8 samples.

Results

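The nuclear factor kappa B (NF-kB) genes described here were 10 of the 54532 genes counted in lung endothelial cells (ECs) of mouse pups. They were chosen by function: the subunit genes Rela, Relb, Nfkb1 and Nfkb2, the kinase gene Ikbkb, and the feedback genes Nfkbia, Nfkbie, Nfkbiz, Tnfaip3 and Birc3. Bulk RNA-seq libraries were made from ECs of wild-type C57BL/6J pups at postnatal day 14. In the normoxia group the pups were kept in room air (21% O2), and in the hyperoxia group in 80% O2, from postnatal day 0 onwards. Each group held 4 libraries. Newborn mice kept in high oxygen serve as a model for bronchopulmonary dysplasia, the chronic lung disease of preterm infants, and the comparison asks how the ECs of such lungs differ.

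Per the study's methods, beads against CD45 first removed leukocytes, and beads against CD31 then pulled out the ECs. Some other lung cells can pass such a procedure. The EC genes Cdh5 and Pecam1, which encode VE-cadherin and CD31, averaged 4121 and 2902 CPM (counts scaled to a common library size) in the normoxia libraries and 4035 and 2822 CPM in those of hyperoxia. Totals ran from 16098086 to 18300730 counts per library. Of the 8 libraries, 5 held over 1000 counts of both Xist and Y-linked genes, so these hold RNA of both sexes. Normoxia 2 and hyperoxia 4 held only 3 and 5 counts of Xist, and hyperoxia 3 only 7 counts of Y-linked genes. The sex makeup thus differed between libraries, and its part in the results was not tested. How many pups entered a library is not given in the sources used here. In such bulk samples, fewer cells of a type and less RNA per cell cannot be told apart.

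NF-kB is a family of transcription factors that bind DNA as dimers. In resting cells the dimers are held in the cytoplasm by inhibitors of the IkB family. Cytokines and other danger signals activate the IkB kinase, IkB is degraded, and the freed dimers switch on genes for adhesion molecules, chemokines and survival factors. The response also induces its own inhibitors, which close the loop. In ECs the pathway is best known for making the vessel wall adhesive for leukocytes.

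Promoters of the genes described here were searched for a sequence that NF-kB can bind. RefSeq promoter windows (GRCm38.p6), which run from 250 bases before to 50 bases after a transcription start, were given for 6 of the 10 genes, in 9 windows. They were searched on both strands for the kappa B decamer consensus, the general binding motif of NF-kB dimers. Of these 6 genes, 4 had a match, against 9.55% of the 27025 genes with a window and 12.3% of the 10904 tested genes with one. The 10 genes were chosen as NF-kB genes and include known targets, so the choice itself favoured matches. Nfkb1, Relb, Nfkbiz and Ikbkb had no window. The windows of the feedback pair Nfkbia and Tnfaip3, of Nfkb2 and of Rela are shown because the results below turn on these genes. Each is given 5′ to 3′ on the strand of its gene, with decamer matches in capitals.
Nfkbia, chr12:55492598-55492897, minus strand: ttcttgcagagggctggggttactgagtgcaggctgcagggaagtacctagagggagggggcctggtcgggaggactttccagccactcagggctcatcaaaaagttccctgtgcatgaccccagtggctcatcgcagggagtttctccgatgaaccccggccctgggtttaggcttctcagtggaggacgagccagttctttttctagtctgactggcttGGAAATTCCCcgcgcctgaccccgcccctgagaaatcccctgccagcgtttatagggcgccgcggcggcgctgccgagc
Tnfaip3, chr10:19015361-19015660, minus strand: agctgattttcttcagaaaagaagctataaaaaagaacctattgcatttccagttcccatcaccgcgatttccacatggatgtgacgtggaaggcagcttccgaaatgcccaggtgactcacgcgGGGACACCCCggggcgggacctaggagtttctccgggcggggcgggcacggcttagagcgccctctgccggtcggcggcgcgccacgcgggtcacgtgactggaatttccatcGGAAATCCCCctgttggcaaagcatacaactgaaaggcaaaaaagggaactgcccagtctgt
Nfkb2, chr19:46304487-46304786, plus strand: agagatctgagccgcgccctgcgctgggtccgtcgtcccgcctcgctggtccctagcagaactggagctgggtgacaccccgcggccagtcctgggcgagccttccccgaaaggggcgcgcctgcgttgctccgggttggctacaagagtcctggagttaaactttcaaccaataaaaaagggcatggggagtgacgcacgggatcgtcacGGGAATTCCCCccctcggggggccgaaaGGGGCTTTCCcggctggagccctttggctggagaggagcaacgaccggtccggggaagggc
Rela, chr19:5637291-5637590, plus strand: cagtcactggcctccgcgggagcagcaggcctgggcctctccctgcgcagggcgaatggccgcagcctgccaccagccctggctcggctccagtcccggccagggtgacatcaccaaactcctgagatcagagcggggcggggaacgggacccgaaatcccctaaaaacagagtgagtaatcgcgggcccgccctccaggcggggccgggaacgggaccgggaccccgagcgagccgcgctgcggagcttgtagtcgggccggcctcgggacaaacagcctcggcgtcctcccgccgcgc
The match in Nfkbia began 29 bases before the start, and those in Tnfaip3 began 125 and 12 bases before it. In Nfkb2, overlapping matches began 39 and 38 bases before the start and a further match 11 bases before it. Nfkb2 had matches in 2 more windows, from other starts. In Nfkbie, whose result did not pass the test below, the only match began 106 bases before the start and is shown with its flanks.
Nfkbie: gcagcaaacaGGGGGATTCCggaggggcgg
The windows of Rela and Birc3 and a further window of Tnfaip3 (chr10:19011914-19012213) held no match. A match is a run of letters and not a measured binding site.

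All 10 genes passed the filter on low counts, with 181 to 6675 counts per library. Of the 10, 5 were higher in hyperoxia (Rela, Tnfaip3, Relb, Birc3 and Nfkb2), 2 were lower (Nfkb1 and Nfkbia) and 3 did not pass the test (Nfkbiz, Nfkbie and Ikbkb). The test was edgeR's quasi-likelihood test with an adjusted p under 0.05 over the 15564 genes tested. Of all tested genes, 35.6% passed it, 18.5% as higher and 17.1% as lower in hyperoxia. The changes were moderate. None of the 10 genes reached a log2 fold change of 1 in either direction together with the test, a mark that 6.98% of tested genes reached. In 7 of the 10 genes the 2 groups did not overlap, as for 35.4% of tested genes.

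**Figure D1:**
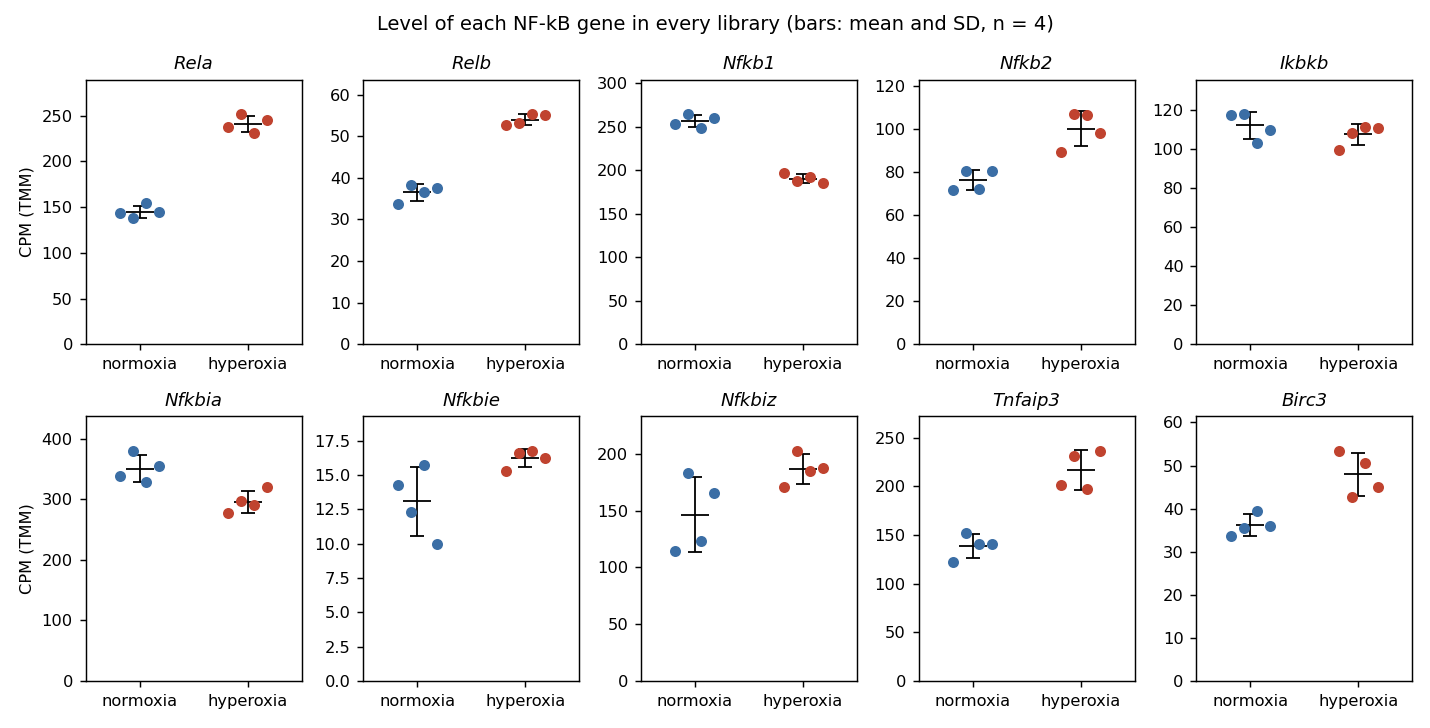
Level of each gene in CPM (TMM-normalized) in every library. Points are libraries, with replicates 1 to 4 from left to right, and bars give the mean and SD of 4 libraries. The groups did not overlap for Rela, Relb, Nfkb1, Nfkb2, Nfkbia, Tnfaip3 and Birc3, and overlapped for Ikbkb, Nfkbie and Nfkbiz.

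Rela (ENSMUSG00000024927; chr19:5637483-5648130, plus strand) encodes p65, the subunit that activates transcription in the main NF-kB dimer. Its level was 143, 138, 154 and 144 CPM in normoxia 1 to 4 and 238, 252, 231 and 245 CPM in hyperoxia 1 to 4. Every hyperoxia library stood above every normoxia library, by a wide margin against the spread within a group. The means were 145 ± 6.63 and 241 ± 8.85 CPM (SD, n = 4 each). Rela rose by a log2 fold change of 0.74 (SE 0.048, 95% interval 0.62 to 0.85, edgeR adjusted p = 1.81e-06). By p-value it ranked 122 among the tested genes, the highest rank of the 10.

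Nfkb1 (ENSMUSG00000028163; chr3:135584655-135691547, minus strand) encodes p105, the precursor of p50, which is the usual partner of p65. It moved the other way. Its level was 253, 264, 248 and 260 CPM in normoxia 1 to 4 and 197, 187, 192 and 186 CPM in hyperoxia 1 to 4. All hyperoxia libraries lay below all normoxia libraries, with a spread of a few CPM in either group. The means were 257 ± 7.14 and 190.4 ± 5.06 CPM (SD, n = 4 each), and Nfkb1 fell by 25.8% (log2 fold change -0.43, SE 0.042, 95% interval -0.53 to -0.33, edgeR adjusted p = 2.51e-05).

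Relb (ENSMUSG00000002983; chr7:19606217-19629438, minus strand) encodes the activating subunit of the non-canonical branch. Its values were 33.6, 38.3, 36.5 and 37.6 CPM in normoxia and 52.6, 53.1, 55.3 and 55.1 CPM in hyperoxia. The 4 hyperoxia libraries were close together and above the others. Relb rose from 36.5 ± 2.06 to 54.0 ± 1.38 CPM (SD, n = 4 each; log2 fold change 0.56, SE 0.054, edgeR adjusted p = 2.22e-05).

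Nfkb2 (ENSMUSG00000025225; chr19:46304737-46312090, plus strand) encodes p100, which is cut to p52, the partner of RelB, and which as p100 also acts as an inhibitor. It stood at 71.9, 80.5, 72.3 and 80.5 CPM in normoxia and at 89.5, 107, 107 and 98.0 CPM in hyperoxia. The groups were separate, with hyperoxia 1 the lowest of its group. Nfkb2 rose from 76.3 ± 4.85 to 100.2 ± 8.24 CPM (SD, n = 4 each; log2 fold change 0.39, SE 0.068, edgeR adjusted p = 0.00118). In the GENCODE M21 annotation, Nfkb2 has other coordinates than in the deposited counts. There its exons overlap those of Psd on the opposite strand over 6.52% of their bases, and those of a further gene on that strand over 11.6%. The use of strand in counting is not given in the sources used here. Psd itself averaged 34.9 and 40.5 CPM in the 2 groups (log2 fold change 0.21, edgeR adjusted p = 0.0905).

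The fifth subunit gene, Rel, encodes c-Rel and belongs to a wider list of pathway genes. Its level was 74.2, 93.2, 79.8 and 90.0 CPM in normoxia and 61.0, 59.0, 61.0 and 62.6 CPM in hyperoxia, without overlap. Rel fell by 0.47 on the log2 scale (SE 0.070, edgeR adjusted p = 0.00047). Of the 5 subunit genes, 3 thus rose and 2 fell.

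**Figure D2:**
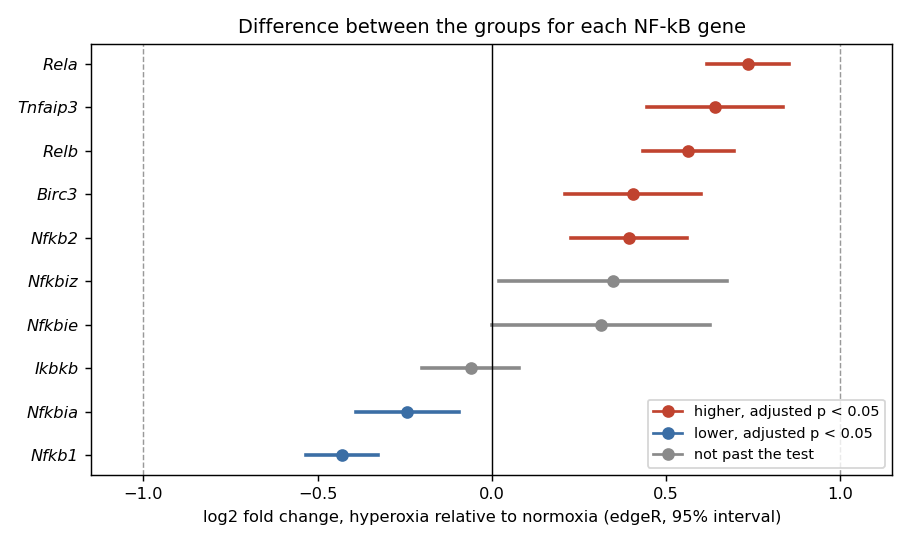
Log2 fold change of each gene, hyperoxia relative to normoxia, with a 95% interval formed from the edgeR estimate and its SE (4 libraries a group). Dashed lines mark a log2 fold change of 1 in either direction; all 10 estimates lay inside them, from -0.43 for Nfkb1 to 0.74 for Rela.

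Nfkbia (ENSMUSG00000021025; chr12:55489410-55492647, minus strand) encodes IkBα, the inhibitor that NF-kB induces within its own response. Its values were 339, 380, 328 and 355 CPM in normoxia and 277, 297, 291 and 320 CPM in hyperoxia. The groups were next to each other, with 328 CPM the lowest normoxia and 320 CPM the highest hyperoxia value. Nfkbia fell by 15.5%, from 350.4 ± 22.6 to 296 ± 18.1 CPM (SD, n = 4 each; log2 fold change -0.24, SE 0.060, edgeR adjusted p = 0.00948). With each library left out in turn it stayed lower, with an adjusted p of at most 0.0275.

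Tnfaip3 (ENSMUSG00000019850; chr10:19000910-19015657, minus strand) encodes A20, a ubiquitin-editing enzyme that is also induced by NF-kB and shuts off signalling upstream of the kinase. It stood at 122, 152, 141 and 140 CPM in normoxia and at 201, 232, 197 and 236 CPM in hyperoxia. The lowest hyperoxia library was well above the highest normoxia library. Tnfaip3 rose from 139 ± 12.2 to 217 ± 20.5 CPM (SD, n = 4 each; log2 fold change 0.64, SE 0.079, edgeR adjusted p = 0.000139). The 2 inducible inhibitors thus moved in opposite directions, although both promoters hold the decamer near the start. In FPKM, the level per gene length, the ratio of Tnfaip3 to Nfkbia was 0.0805, 0.0891, 0.0958 and 0.0880 in normoxia 1 to 4 and 0.162, 0.174, 0.151 and 0.165 in hyperoxia 1 to 4. This ratio was chosen after the values of both genes were seen and is a description only.

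Birc3 (ENSMUSG00000032000; chr9:7848699-7873186, minus strand) encodes cIAP2, an inducible ubiquitin ligase at the TNF receptor that protects cells from death. It was counted at 33.7, 35.5, 39.6 and 36.1 CPM in normoxia and 53.4, 42.6, 50.6 and 45.1 CPM in hyperoxia. The groups did not overlap, and the hyperoxia libraries were the more spread. Birc3 rose from 36.2 ± 2.46 to 47.9 ± 4.95 CPM (SD, n = 4 each; log2 fold change 0.40, SE 0.080, edgeR adjusted p = 0.00258). Birc2, its constitutive relative cIAP1, fell from 60.2 ± 1.28 to 47.6 ± 5.86 CPM (log2 fold change -0.34, edgeR adjusted p = 0.00672).

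Nfkbiz (ENSMUSG00000035356; chr16:55811375-55838899, minus strand) encodes IkBζ, a nuclear protein that helps to switch on secondary NF-kB targets. Its values were 114, 183, 123 and 165 CPM in normoxia and 171, 203, 185 and 188 CPM in hyperoxia. Normoxia 2 lay inside the hyperoxia range and normoxia 4 just below it, while normoxia 1 and 3 lay far below it. The log2 fold change was 0.35 (SE 0.13, 95% interval 0.021 to 0.68) and did not pass the test (edgeR adjusted p = 0.0654). It passed without normoxia 2 (log2 fold change 0.47, adjusted p = 0.0137). Macrophage and monocyte markers summed to 352 and 451 CPM in normoxia 1 and 3 and to 230 and 240 CPM in normoxia 2 and 4. With the mean level of these markers as a term in the model, the log2 fold change of Nfkbiz was 0.55 (edgeR adjusted p = 0.00136).

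Nfkbie (ENSMUSG00000023947; chr17:45555703-45563169, plus strand) encodes IkBε, a slower inhibitor that is prominent in lymphocytes. Its level was 14.3, 12.3, 15.8 and 9.998 CPM in normoxia and 15.3, 16.7, 16.8 and 16.3 CPM in hyperoxia. Normoxia 3 lay inside the hyperoxia range and the others below it. The log2 fold change was 0.31 (SE 0.13, 95% interval 0.00028 to 0.63, edgeR adjusted p = 0.0807). It was 0.41 and passed the test when normoxia 3 was left out (adjusted p = 0.0252). Lymphocyte markers summed to 205, 123, 291 and 124 CPM in normoxia 1 to 4 and to 256, 168, 150.1 and 188 CPM in hyperoxia 1 to 4. In normoxia Nfkbie was lowest in the 2 libraries with the lowest sums, whereas in hyperoxia it was lowest in the library with the highest sum. The part of these cells in the result was not tested.

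Ikbkb (ENSMUSG00000031537; chr8:22659212-22706589, minus strand) encodes IKKβ, the kinase that marks IkBα for degradation. It stood at 117, 118, 103 and 110 CPM in normoxia and at 99.4, 108, 111 and 111 CPM in hyperoxia. The groups overlapped in part, with normoxia 1 and 2 above all hyperoxia libraries and hyperoxia 1 below all normoxia libraries. The log2 fold change was -0.06 (SE 0.057, edgeR adjusted p = 0.445), with a 95% interval from -0.20 to 0.079.

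Some of these genes, but not all, shared the same highest libraries within the normoxia group, which was not tested. Normoxia 2 and 4 were the 2 highest normoxia libraries for Nfkb1, Nfkb2, Relb, Nfkbia, Nfkbiz and Rel, whereas Rela was highest in normoxia 3 and Nfkbie in normoxia 3 and 1. The 2 highest were normoxia 2 and 3 for Tnfaip3, 3 and 4 for Birc3 and 2 and 1 for Ikbkb. Leaving out each library in turn kept all 7 calls, with log2 fold changes of 0.71 to 0.76 for Rela, 0.58 to 0.68 for Tnfaip3, 0.52 to 0.58 for Relb and -0.28 to -0.20 for Nfkbia.

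To compare levels between genes, FPKM was used. Nfkbia was by far the most abundant of the 10 in both groups, with 216 ± 13.1 FPKM under normoxia against 183 ± 11.2 FPKM under hyperoxia (SD, n = 4 each). Rela came second, at 52.9 ± 2.55 and 88.4 ± 3.29 FPKM. Next was Nfkbiz, with 28.9 ± 6.45 and 37.0 ± 2.68 FPKM. In normoxia Nfkb2 (23.0 FPKM), Nfkb1 (21.1 FPKM) and Tnfaip3 (19.1 FPKM) followed. In hyperoxia the order of these 3 was Nfkb2 (30.3 FPKM), Tnfaip3 (29.8 FPKM) and Nfkb1 (15.7 FPKM), so that Nfkb1 went from above Tnfaip3 to below it. Relb, Birc3, Ikbkb and Nfkbie held the last 4 places in both groups, in that order, between 4.26 and 9.32 FPKM in normoxia and between 5.31 and 13.8 FPKM in hyperoxia. Most neighbours in these orders did not overlap between libraries. The exceptions were Nfkbiz with Nfkb2 and Nfkb1 with Tnfaip3 in normoxia, and Nfkb2 with Tnfaip3 and Ikbkb with Nfkbie in hyperoxia. The lengths in the deposited table were shorter than the merged exons of the GENCODE M21 annotation for Nfkb2 (3289 against 4584 bases) and Rela (2716 against 3072 bases), which raises their FPKM relative to the other 8 genes. With the merged length, Nfkb2 stood at 16.5 FPKM in normoxia, below Nfkb1 and Tnfaip3, and at 21.8 FPKM in hyperoxia, below Tnfaip3, while Rela kept its place at 46.8 and 78.2 FPKM.

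The makeup of the subunit transcripts differed between the groups, as the plot of shares by library shows. Of the summed FPKM of the 5 subunit genes, Rela took 45.0 ± 2.22% under normoxia against 56.5 ± 1.27% under hyperoxia (SD, n = 4 each). Nfkb1 took 17.95 ± 0.526% and 10.1 ± 0.501%. Rel took 9.52 ± 0.819% and 5.19 ± 0.221%. For Relb the shares were 7.93 ± 0.275% and 8.85 ± 0.306%. For Nfkb2 they overlapped, at 19.6 ± 0.957% and 19.4 ± 1.30%. The FPKM ratio of Rela to Nfkb1, the genes of the p65 and p50 subunits, was 2.51, 2.32, 2.76 and 2.46 in normoxia 1 to 4 and 5.36, 5.97, 5.35 and 5.86 in hyperoxia 1 to 4. For Relb to Nfkb2 it was 0.395 to 0.428 in normoxia and 0.420 to 0.497 in hyperoxia, with overlap. Shares and ratios were formed after the values had been seen and carry no test. With the merged lengths the mean shares were 44.6% and 56.8% for Rela, 20.1% and 11.4% for Nfkb1 and 15.7% and 15.8% for Nfkb2. They concern transcripts, and protein was not measured.

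**Figure D3:**
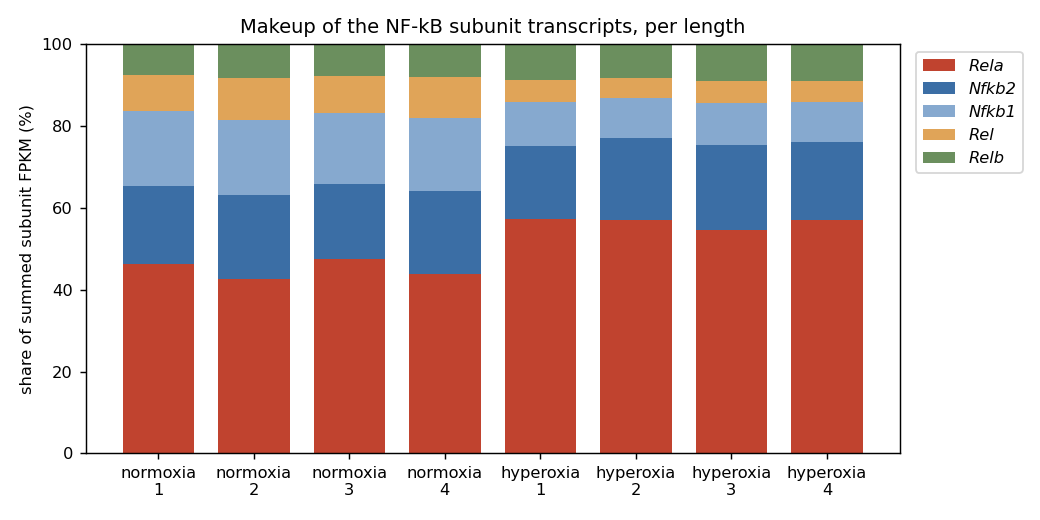
Share of each subunit gene in the summed FPKM of the 5 subunit genes (per cent), 1 bar for each library. The Rela part was 42.6 to 47.5% in the normoxia libraries and 54.6 to 57.3% in the hyperoxia libraries, and the Nfkb1 part 17.2 to 18.4% and 9.57 to 10.7%.

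Around these 10 genes, 109 further genes of the pathway were listed by role, of which 102 were tested. Of these, 34 were higher in hyperoxia, 14 were lower and 54 did not pass (47.1% past the test, against 35.6% of all genes). Their median log2 fold change was 0.10, that of the 10 genes was 0.37 and that of all tested genes was -0.0040. The 10 genes and the lists were chosen with earlier results of these data known. The shares and medians, here and by list below, are therefore a description only. Of the 102, 12 passed with a log2 fold change of at least 1, and all 12 were higher.

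Of all tested genes, 18.5% were higher and 17.1% lower, and the counts by list stand beside these shares. Among the other subunits and inhibitors, 1 of 4 rose and 2 fell. Bcl3, a nuclear IkB protein that works with p50 and p52, rose from 39.1 ± 4.95 to 64.5 ± 14.9 CPM (log2 fold change 0.72, edgeR adjusted p = 0.00319). Nfkbid, which encodes the related IkBNS, fell from 34.4 ± 1.64 to 26.5 ± 2.67 CPM (log2 fold change -0.37, edgeR adjusted p = 0.00329). In the IKK complex and related kinases, 1 of 11 rose, 2 fell and 8 did not pass, with a median of -0.02. Map3k14 encodes NIK, the kinase of the non-canonical branch to which Relb and Nfkb2 belong. It rose from 12.8 ± 1.28 to 16.5 ± 1.22 CPM (log2 fold change 0.36, edgeR adjusted p = 0.0138). Tab3, which encodes an adaptor of the kinase TAK1, and Map3k3 (MEKK3) fell by 0.45 and 0.23 on the log2 scale. Tab2, the close relative of Tab3, averaged 140.0 and 129.6 CPM in the 2 groups (edgeR adjusted p = 0.0519).

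Receptor-proximal adaptors and ligases were balanced, with 4 of 21 higher, 4 lower and a median of 0.00. Among all tested genes the shares were 18.5% higher and 17.1% lower. Irak2, Bcl10 and Ticam1, which act in interleukin 1, antigen and Toll-like receptor signalling respectively, rose by 0.40, 0.30 and 0.56 on the log2 scale. Traf5 and Card10, adaptors of TNF family and G protein-coupled receptors, fell by 0.61 and 0.33. Xiap, the most abundant of the list, did not pass, at 392 CPM under normoxia against 385 CPM under hyperoxia. The other negative regulators were also mixed, with 5 of 16 higher and 4 lower. Otulin, a deubiquitinase of linear chains, and Pdlim2, which promotes degradation of p65, rose by 0.47 and 0.38 on the log2 scale. The deubiquitinase gene Cyld fell by 0.29. Itch and Tax1bp1, which encode partners of A20, fell by 0.26 and 0.39. Rnf11, a further partner of A20, rose by 0.21. Tollip, among the most abundant of the list, did not pass, at 129 CPM under normoxia against 133 CPM under hyperoxia (edgeR adjusted p = 0.349). Tnip1, whose product binds A20, rose by 0.19, and its relative Tnip2 averaged 28.0 and 30.3 CPM in the 2 groups and did not pass (edgeR adjusted p = 0.138).

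Of the receptors that feed NF-kB, 6 of 15 were higher and 1 was lower, beside 18.5% higher and 17.1% lower among all tested genes. Eda2r, a TNF family receptor, went from 1.92 ± 0.686 to 78.3 ± 8.65 CPM (log2 fold change 5.33, edgeR adjusted p = 2.84e-08). Tnfrsf12a, the receptor of TWEAK, rose by 1.47, Tlr4 by 0.91, Nod2 by 0.74 and Il1r1 by 0.50 on the log2 scale. The receptor gene that fell was Nod1, from 195 ± 11.8 to 121 ± 36.9 CPM (log2 fold change -0.69, edgeR adjusted p = 0.008). Nod1 stood at 173.5, 103.8, 116.3 and 89.1 CPM in hyperoxia 1 to 4. Ager rose from 25.4 ± 3.91 to 153 ± 62.9 CPM (edgeR adjusted p = 0.000114). It also marks alveolar type 1 cells, and a fit with an epithelial term put its log2 fold change at -0.16 (edgeR adjusted p = 0.846). The main TNF receptor gene Tnfrsf1a and the lymphotoxin receptor gene Ltbr did not pass, at 252 and 162 CPM under normoxia against 263 and 166 CPM under hyperoxia.

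Among the target genes, 17 of 35 tested were higher in hyperoxia, 1 was lower and 17 did not pass, with a median of 0.58. Of all tested genes, 18.5% were higher and 17.1% lower. Icam1, the main adhesion molecule that NF-kB induces in ECs, stood at 307, 369, 289 and 308 CPM in normoxia and at 684, 724, 654 and 694 CPM in hyperoxia. It rose by a log2 fold change of 1.12 (SE 0.073, edgeR adjusted p = 1.85e-06). Ptgs2 (cyclooxygenase 2) rose by 2.51, Plau (urokinase) by 1.48, Tnfaip2 by 1.03, Nos2 (inducible nitric oxide synthase) by 0.84 and Bcl2l1, which encodes the survival factor Bcl-xL, by 0.82 on the log2 scale. F3 (tissue factor) had the largest log2 fold change of the targets, 3.07 (edgeR adjusted p = 0.000251), at a low level of 0.286 CPM in normoxia and 2.45 CPM in hyperoxia. It stood at 3.14, 2.89, 1.09 and 2.66 CPM in hyperoxia 1 to 4. The lowest value was in hyperoxia 3, which also held the lowest pan-epithelial marker sum of its group. The part of epithelial cells in this result was not tested. Other classical targets did not pass. Like F3, they were chosen after their values were seen: Irf1 was at 368 and 412 CPM, Sod2 at 43.6 and 44.6 CPM, Cflar at 259.8 and 264 CPM and Csf1 at 58.8 and 58.4 CPM in normoxia and hyperoxia. Irf1 and Csf1 were uneven in hyperoxia and highest in hyperoxia 1. In hyperoxia 1 to 4, Irf1 was at 610, 369, 399 and 272 CPM and Csf1 at 84.1, 48.8, 56.8 and 44.0 CPM. Junb, the most abundant target, did not pass, at 1112 CPM under normoxia against 1044 CPM under hyperoxia (edgeR adjusted p = 0.222). Ier3 was the target that fell, from 770 ± 72.2 to 474 ± 52.1 CPM (log2 fold change -0.70, edgeR adjusted p = 0.000131). As an immediate early gene it also responds to handling. The 24 dissociation and immediate early genes together summed to 9818 to 12130 CPM under normoxia against 10650 to 11780 CPM under hyperoxia (exact permutation p = 0.514), and 7 of them were higher and 3 lower.

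**Figure D4:**
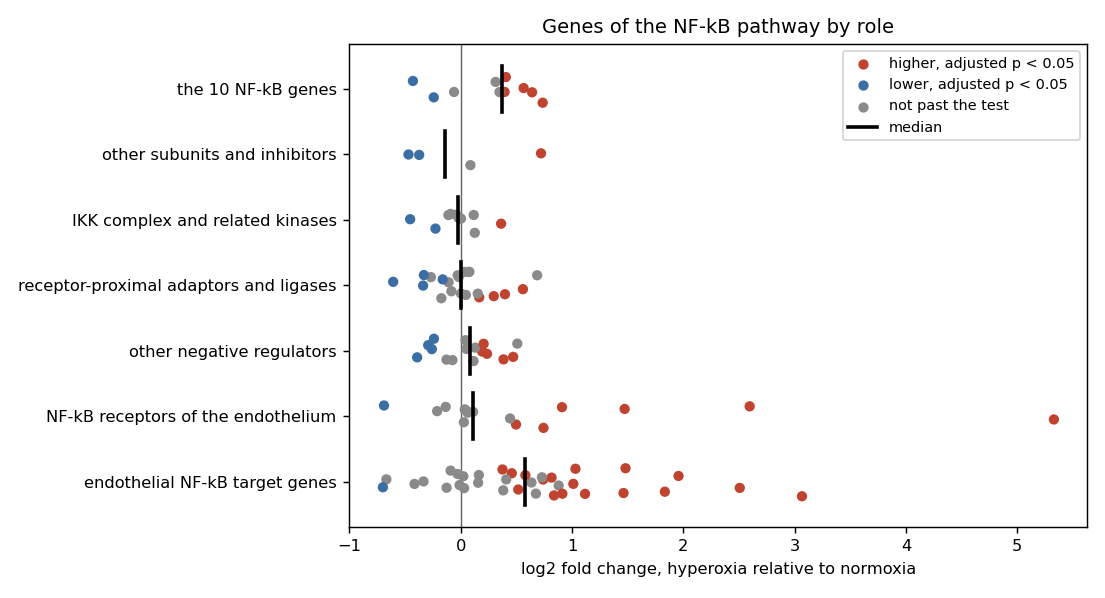
Log2 fold change (hyperoxia relative to normoxia) of every tested gene of the pathway by role, with the median of each list as a black bar. Points are genes, coloured by the edgeR result at an adjusted p under 0.05. The target genes had the highest median (0.58), and the IKK complex and the adaptors stood near 0 (-0.02 and 0.00).

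The decamer was found in the promoter windows of 27 of the 82 pathway genes that were tested and had a window (32.9%, against 12.3% of all tested genes with a window). The lists include known NF-kB targets, so the choice of genes itself favoured matches, and the higher share is no result of the comparison. Of these 27, 11 were higher in hyperoxia, among them Bcl3, Tnfaip2 and Bcl2l1. Another 5 were lower, among them Rel, Nfkbid and Ier3, and 11 did not pass. Of the other 55 pathway genes with a window, 17 were higher, 7 were lower and 31 did not pass, and of all tested genes 18.5% were higher and 17.1% lower. Genes with the decamer were thus found in both directions, as among the 10 genes, where Tnfaip3 and Nfkb2 rose, Nfkbia fell and Nfkbie did not pass.

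Markers of other cells moved with the groups. Pan-epithelial markers summed to 10.9 to 16.6 CPM in normoxia and 31.1 to 95.01 CPM in hyperoxia (9 of 10 tested markers higher, exact permutation p = 0.0286, the smallest p that 4 against 4 libraries allow, 0.049 after adjustment over 12 lists). Alveolar type 2 markers summed to between 265 and 378 CPM in normoxia and between 868 and 2601 CPM in hyperoxia (14 of 14 higher). Of the alveolar type 1 markers 13 of 14 were higher and 1, Vegfa, which ECs and other cells also express, was lower (log2 fold change -0.37). Of the fibroblast and mural markers, 8 of 12 and 6 of 11 were higher and none was lower. Macrophage markers ranged from 230.0 to 450.5 CPM in normoxia and from 312 to 646 CPM in hyperoxia, with overlap (exact permutation p = 0.143), and 4 of 17 tested markers were higher, such as Lyz2 (log2 fold change 1.54), and 1 was lower. Neutrophil and lymphocyte markers overlapped too, with 0 of 10 and 0 of 14 past the edgeR test. Pan-endothelial markers summed to 22860 to 23820 CPM and 21940 to 22960 CPM (exact permutation p = 0.114). Single genes of this list did move. Of its 18 genes, 5 were higher, among them Cldn5 (log2 fold change 0.22), 5 were lower and 8, among them Cdh5 and Pecam1, did not pass. Scaled by library totals alone, the pan-endothelial sums were 23060 to 23560 CPM and 21830 to 22590 CPM (exact permutation p = 0.0286, adjusted p = 0.0572), and the pan-epithelial sums also had an adjusted p of 0.0572. Within the ECs, all 10 aerocyte capillary markers were higher and of the 10 general capillary markers 6 were lower and 2, among them Cd93 (log2 fold change 0.23), were higher. The part of these shifts in the NF-kB results was not tested beyond the fits given here.

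**Figure D5:**
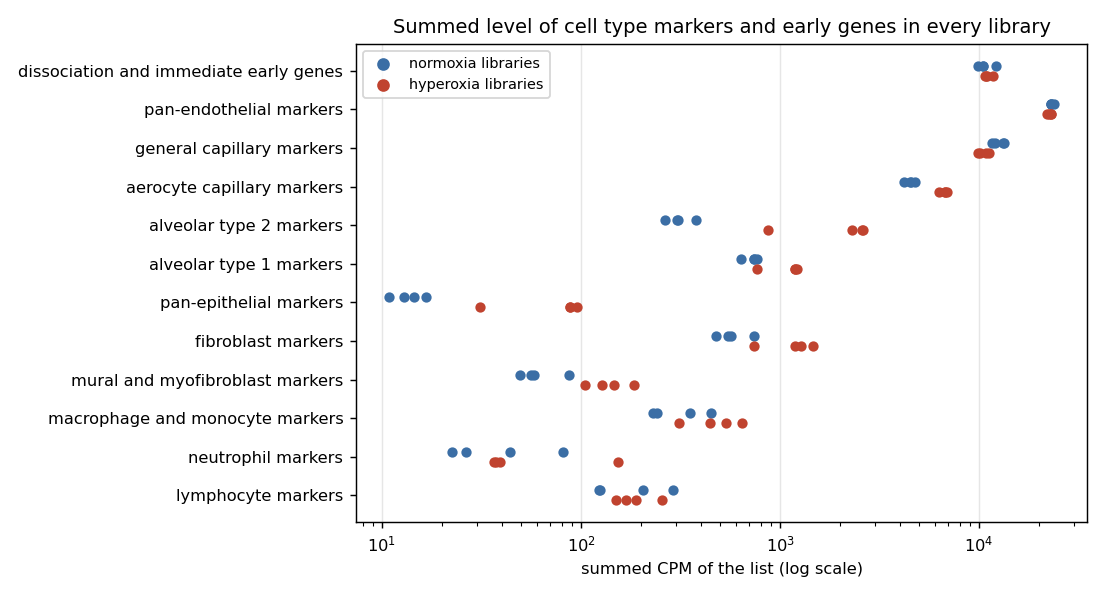
Summed CPM of each marker list in every library, on a log axis. Blue points are the 4 normoxia and red points the 4 hyperoxia libraries. Hyperoxia 3 held the lowest epithelial sum of its group (31.1 CPM against 87.9 to 95.01 CPM in the other 3), and the pan-endothelial sums differed little between libraries.

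Hyperoxia 3 held 31.1 CPM of pan-epithelial markers where the other hyperoxia libraries held 87.9 to 95.01 CPM. Of the 7 genes past the test, Rela (231 CPM) and Tnfaip3 (197 CPM) were at their lowest of the group in this library and Relb (55.3 CPM) at its highest. Nfkb1 (192 CPM), Nfkb2 (106.5 CPM), Nfkbia (291 CPM) and Birc3 (50.6 CPM) lay within the range of the other 3 hyperoxia libraries. For all 7, its value was outside the normoxia range. When the mean epithelial marker level was entered as a term beside the group, none of the 7 calls held. The log2 fold changes were then 0.62 for Rela (adjusted p = 0.0545), 0.70 for Relb (0.0516), 0.63 for Nfkb2, 0.62 for Birc3, 0.44 for Tnfaip3, -0.39 for Nfkb1 and -0.27 for Nfkbia. The signs stayed the same. The standard errors were 2.64 to 3.07 times larger, since the term and the group moved together, and 256 of all tested genes passed in that fit.

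The genes whose pattern was most like that of Rela over the 8 libraries were Lilrb4a, Sdc4, Prnp, Adam12 and Pls3 (Pearson r of log2 CPM 0.997 to 0.999). For Nfkbia they were Setbp1, Ppp1r15a, A930024N18Rik, Zbtb1 and Slit1 (r 0.981 to 0.994). A930024N18Rik and Slit1 were near or under 2 CPM. These values are a description, since the 8 libraries fall into the 2 groups and any gene with a clean difference between them scores high. Over 0.95, Rela had 756 such genes and Nfkbia 56.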

How the data were processed

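Bulk RNA-seq of 8 libraries was used, 4 from normoxia and 4 from hyperoxia pups, grouped by the treatment label. The authors deposited whole-number gene counts and FPKM for the same 54532 genes. Per the submitters' processing notes, HISAT2 2.0.5, featureCounts 1.5.0-p3 and build mm10 were used, while strand use and multi-mapping reads are not given in the sources used here. The deposited FPKM equalled the count over gene length and library total within a relative deviation of 4e-08, and FPKM was used to compare levels between genes. Coordinates are GRCm38 (mm10) as the files give them, and 98.0% of gene IDs had the same coordinates in GENCODE M21.

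Counts were tested with edgeR 4.0.16 in R 4.3.3 (TMM, filterByExpr, quasi-likelihood test, group as the only term). P-values were adjusted by Benjamini-Hochberg over 15564 genes, and a call is an adjusted p under 0.05. The SE of a log2 fold change was derived from the estimate and its test statistic. The 95% intervals were formed from this SE with a t distribution on 6 residual degrees of freedom, and edgeR itself does not give them. CPM is scaled to the TMM library size. The scripts were tested on simulated data. Marker sums were compared by two-sided exact permutation tests over the 8 libraries, adjusted over the lists. No label says whether libraries came from separate animals, so p-values measure the spread between these libraries.

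The 10 genes, the lists and the test were chosen with earlier results of these data known. All 10 are named. Of each pathway list, up to 6 genes past the test by smallest p and the 2 most abundant were named, with values for a selection of them. Of the marker and early gene lists, 3 genes by abundance qualified. For Rela, which had the smallest p, and for Nfkbia, the 5 genes most like them were named. Psd, F3, Nod1, Tnip1, Tnip2 and 4 targets that did not pass were named outside this rule, after their values were seen. Alternatives were other scalings, other filters, DESeq2 1.42.0, limma 3.58.1 on log2 FPKM, a replicate block, marker scores as terms and leaving out each library.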

Additional observations from a re-analysis of the deposited data

Results flagged for a closer look

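In groups of 4 libraries, a library was singled out when its gap to the nearest other library relative to the range of the group exceeded Dixon's 95% critical value. Of 44 groups examined, 4 had such a library, and chance gives about 1 in 20. None concerned 1 of the 10 NF-kB genes. The pan-endothelial markers summed to 23820 CPM in normoxia 4, above 22860 to 23020 CPM in the other 3 libraries. The alveolar type 1 markers summed to 766.6 CPM in hyperoxia 3, below 1184 to 1217 CPM in the others. In the same library the pan-epithelial markers summed to 31.14 CPM, below 87.87 to 95.01 CPM. The neutrophil markers summed to 153.6 CPM in hyperoxia 1, above 36.35 to 39.3 CPM in the others. Without hyperoxia 1 or without hyperoxia 3, the 7 NF-kB genes past the test kept their calls.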

How the results depend on the processing

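Each of the 10 genes was refitted under 20 alternatives. The 7 genes past the test kept their direction under all of them and their side of the threshold under all but the pan-epithelial score. With that score, 0 of the 10 genes were higher and 0 lower, 7 pathway genes were higher and 0 lower, and 256 genes passed in all. The log2 fold changes were then -0.39 for Nfkb1 (adjusted p = 0.20), 0.63 for Nfkb2 (0.14), 0.62 for Rela (0.0545), 0.70 for Relb (0.0516), -0.27 for Nfkbia (0.595), 0.44 for Tnfaip3 (0.467) and 0.62 for Birc3 (0.243). Nfkbiz passed the test at 0.36 with no filter, 0.35 by DESeq2, 0.55 with the macrophage score and 0.37 with the replicate block, where 8 of the 10 genes passed (Nfkbiz adjusted p = 0.0152). Same-numbered libraries did not deviate together (r = 0.119, 0.0361, -0.125 and -0.14), only replicate 1 matched its own number best, and the numbers were not treated as pairs. The block changed no other call of the 10. Leaving out 1 library gave 0.24 to 0.47 for Nfkbiz, which passed without normoxia 2, and 0.20 to 0.41 for Nfkbie, which passed without normoxia 3. Leaving out 1 library also gave 1 to 2 overlapping neighbours in the order of levels, in either group, and the merged exon length, an alternative chosen after seeing the data, gave 1 in hyperoxia. Of the 37 pathway genes that the naming rule gave, 31 passed the test. With the epithelial score, 23 of these lost it with their direction kept, and Ager lost it with its direction reversed. Directions reversed for Xiap (-0.075 to 0.023 with 1 library left out, 0.023 without normoxia 4, 0.011 without hyperoxia 1, 0.23 with the epithelial and 0.061 with the macrophage score), Ager (-0.16, epithelial score) and Ltbr (-0.015, macrophage score). The cause was not tested. Depth did not limit the 10 genes, whose lowest count was 181. A log2 fold change of Ikbkb beyond -0.20 to 0.079 is outside its 95% interval.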
